A study of Mus musculus with 12 samples.

Results

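The phase II detoxification enzymes attach a large polar group to a drug, steroid, bile acid or lipid so that it can leave the cell. The enzymes described here were the protein-coding mouse genes whose symbols place them among the soluble glutathione S-transferases (Gst), the UDP-glucuronosyltransferases (Ugt) and the cytosolic sulfotransferases (Sult). This gave 65 genes out of 54532 in the count table, 22 Gst, 22 Ugt and 21 Sult, chosen by name alone. Glutathione S-transferases add glutathione to reactive electrophiles, UDP-glucuronosyltransferases of the endoplasmic reticulum add glucuronic acid from UDP-glucuronate, and sulfotransferases add sulfate from the donor PAPS. Conjugates then leave through efflux pumps of the ABC family. Hepatocytes are the best known site of this chemistry.

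RNA was taken from liver and subcutaneous fat of male mice that were injected at 10 weeks of age with an adeno-associated virus of serotype AAV8, fed a low-fat diet and studied 16 weeks later. The hHKDC1 OE vector carried human HKDC1, a hexokinase, behind the thyroxine-binding globulin promoter (TBGp), which is active in hepatocytes. The null vector had the same promoter without the gene. Each combination of tissue and vector had 3 libraries, giving 12, and the mouse strain is not given in the sources used here. The titles and the treatment label put 3 libraries of each tissue in the hHKDC1 OE group, whereas the description field calls replicates 2 and 3 of that group knockouts. The mouse gene Hkdc1 had 1 to 8 counts in each liver library and 0 to 7 in each fat library, and human HKDC1 was not analysed here, so the table holds no direct check of the vector. Counts on genes came to between 15496019 and 19954971 per library.

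In both tissues hHKDC1 OE replicate 2 stood apart from the other libraries of its group. In liver its root mean square log2 difference from null replicates 2 and 3 was 0.573 and 0.548, against 0.706 and 0.651 from hHKDC1 OE replicates 1 and 3. In fat the difference was 0.748 from null replicate 3 and 1.07 from each of the other hHKDC1 OE libraries, which differed from each other by 0.672. Some null libraries stood apart too. Null liver replicate 1 differed by 0.662 to 0.79 from the other liver libraries, and null fat replicate 3 by 0.914 and 0.905 from its group, whose other pair differed by 0.675. Counts of calls are therefore given with and without replicate 2, and within each tissue the value without it is added where it turned the sign of, or moved by over 1.5 times, the log2 fold change of a named member or the median of a pathway list. Replicate 2 was singled out from these same data, for lying nearer to null libraries, and leaving it out favours larger group differences. Values and calls without it are therefore a description and carry no independent test. Values of single genes in the lists are given with all libraries. In bulk tissue, fewer cells of a type and less RNA per cell cannot be told apart.

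A binding motif of a liver factor occurred in promoters of UDP-glucuronosyltransferases and sulfotransferases and in none of the glutathione S-transferases. HNF1 is a liver-enriched homeodomain factor, and the core of its site was searched as TTAATNATT on both strands of the RefSeq promoter windows of GRCm38.p6, which run from 250 bases before to 50 bases after each start. Windows were matched for 57 of the 65 members. The core was present in 13 of these 57 (22.8%) and in 1.72% of the 27025 genes with a window. It was found in 8 of 20 Ugt promoters, 5 of 17 Sult promoters and 0 of 20 Gst promoters. Some matches lie in nearly the same sequence of related genes, as in Ugt2b5 and Ugt2b38 and among the Sult2a genes, so the matches are not independent. The stretches below show 1 match each in capitals, 5′ to 3′ on the strand of the gene, for members that lie near the hepatocyte markers in the comparison of tissues further on, and for a Sult2a gene with the same core.

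Ugt1a1, chr1:88211894-88211942, plus strand: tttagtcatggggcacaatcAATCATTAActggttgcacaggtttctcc
Ugt1a5, chr1:88165906-88165954, plus strand: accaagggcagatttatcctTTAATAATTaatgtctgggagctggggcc
Ugt1a9, chr1:88070664-88070712, plus strand: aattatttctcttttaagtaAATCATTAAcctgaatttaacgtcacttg
Ugt2b35, chr5:87000690-87000738, plus strand: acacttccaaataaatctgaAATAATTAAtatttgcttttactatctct
Ugt2b5, chr5:87140533-87140581, minus strand: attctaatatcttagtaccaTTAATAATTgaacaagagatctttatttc
Ugt2b38, chr5:87424404-87424452, minus strand: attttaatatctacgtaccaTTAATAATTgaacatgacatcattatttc
Sult1d1, chr5:87569056-87569104, minus strand: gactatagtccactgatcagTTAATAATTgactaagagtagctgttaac
Sult2a4, chr7:13989666-13989714, minus strand: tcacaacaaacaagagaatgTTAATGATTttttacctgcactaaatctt

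The match began 45 bases before the start of Ugt1a1, 78 before that of Sult1d1, 86 before Ugt1a5, 95 before Ugt1a9, 106 before Sult2a4, 150 before Ugt2b35, 221 before Ugt2b5 and 229 before Ugt2b38. Ugt2b5 held another match 134 bases before its start, and Ugt1a5 an overlapping match on the other strand at 84. The other members with the core were Ugt1a10, Ugt2b37, Sult2a3, Sult2a5 and Sult2a6. A match did not go with a given level, since the 4 Sult2a genes that hold the core had 0 counts in all 12 libraries and Ugt2b5 was the most abundant Ugt of liver. Other motifs were searched in the same way. The core of the antioxidant response element (TGACNNNGC), bound by NRF2, was in 3 members (5.26%), Gsta3, Gstm5 and Gstm7, and in 3781 of the 27025 genes. The CEBP core (TTGCNNAA) was in 13 members (22.8%) and 12.2% of all genes, and the HNF4 core (CAAAGTCCA) in 1 member, Sult1b1 (1.75%), and 0.555% of all genes.

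Null liver carried most of these enzymes and a few of them dominated. Of the 65 members, 42 had a mean of at least 1 FPKM in null liver and 29 in null fat, and 12 and 14 had 0 counts in all 3 libraries. FPKM as deposited are counts scaled to gene length and to a constant of each library, which was larger in fat than in liver. They are used here to compare levels between genes and, for a member, to give its level in fat beside that in liver, where the constants, which vary by library, lower the values of fat. Glutathione S-transferases summed to 4218 ± 612 FPKM in null liver (SD, n = 3), UDP-glucuronosyltransferases to 1858 ± 390 and sulfotransferases to 930 ± 122. At the level of messenger RNA the order of the families was Gst, Ugt, Sult in each of the null liver libraries, whose sums did not overlap between families.

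Gstp1, the Pi-class transferase, was the most abundant member in null liver at 1772 ± 460 FPKM and made up 41.9% of the Gst sum. Gstm1, of the Mu class, followed at 949 ± 234 FPKM, and Gsta3, an Alpha-class enzyme known for conjugating aflatoxin epoxide, at 459 ± 40.1. Gstt1 (247 ± 37.0) and Gstz1 (222 ± 24.5), which is also the maleylacetoacetate isomerase of tyrosine breakdown, had overlapping ranges. At the other end, Gsta1 had 0.610 ± 0.672 FPKM and Gsta2 12.9 ± 6.32. These Alpha-class genes share sequence: 80.6% of the 100-base windows of Gsta1 transcripts also occur in Gsta2, Gm10639 or Gm3776, so the split of reads between them is uncertain. The same holds for Gstp2 at 3.77 ± 1.20 FPKM, with 46.9% of its windows shared with Gstp1 or a pseudogene. The gene models of Gsto2, Gstp1, Gstp2 and Gstp3 used for the windows are not at the positions in the count table, so for them the shares may differ from those of the counted models.

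The Ugt2b genes, which glucuronidate steroids and bile acids, gave 1374 ± 266 of the 1858 FPKM of their family in null liver. Ugt2b5 had 473 ± 119 FPKM, Ugt2b36 355 ± 87.5 and Ugt2b1 340 ± 48.5. As a share of the Ugt sum of the same library, Ugt2b5 stood at 25.3% ± 1.71, above Ugt2b36 at 19.0% ± 0.883, while Ugt2b36 and Ugt2b1 (18.5% ± 2.20) lay within each other's spread. Ugt2a3 (206 ± 47.8) and Ugt3a2 (159 ± 48.3) came next. Ugt1a1, the enzyme that conjugates bilirubin, had 51.1 ± 9.59 FPKM, and Ugt1a6a, which takes small phenols, 1.22 ± 0.498. Levels of the 9 Ugt1a genes are understated, because they splice different first exons to a common end and 50.3% to 82.7% of their exonic bases lie in exons of another gene, where a counter that drops ambiguous reads counts nothing. Ugt2a1 and Ugt2a2 have 98.8% and 94.5% of their exonic bases in exons of another gene, each other's and those of Gm43638, and had 0 counts throughout, which says little for that reason.

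Sult2a8, which sulfates bile acids, and Sult1a1, the phenol sulfotransferase, had nearly the same level in null liver, 387 ± 38.1 and 375 ± 66.4 FPKM, and together with Sult1d1 (140 ± 34.7), which acts on catecholamines, made up nearly all of the Sult sum. Sult1e1, the estrogen sulfotransferase, had 2.88 ± 2.21 FPKM. The Sult2a1 to Sult2a6 genes, steroid sulfotransferases known to predominate in female mouse liver, had at most 3 counts each over the 12 libraries. All the mice here were male.

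**Figure D1:**
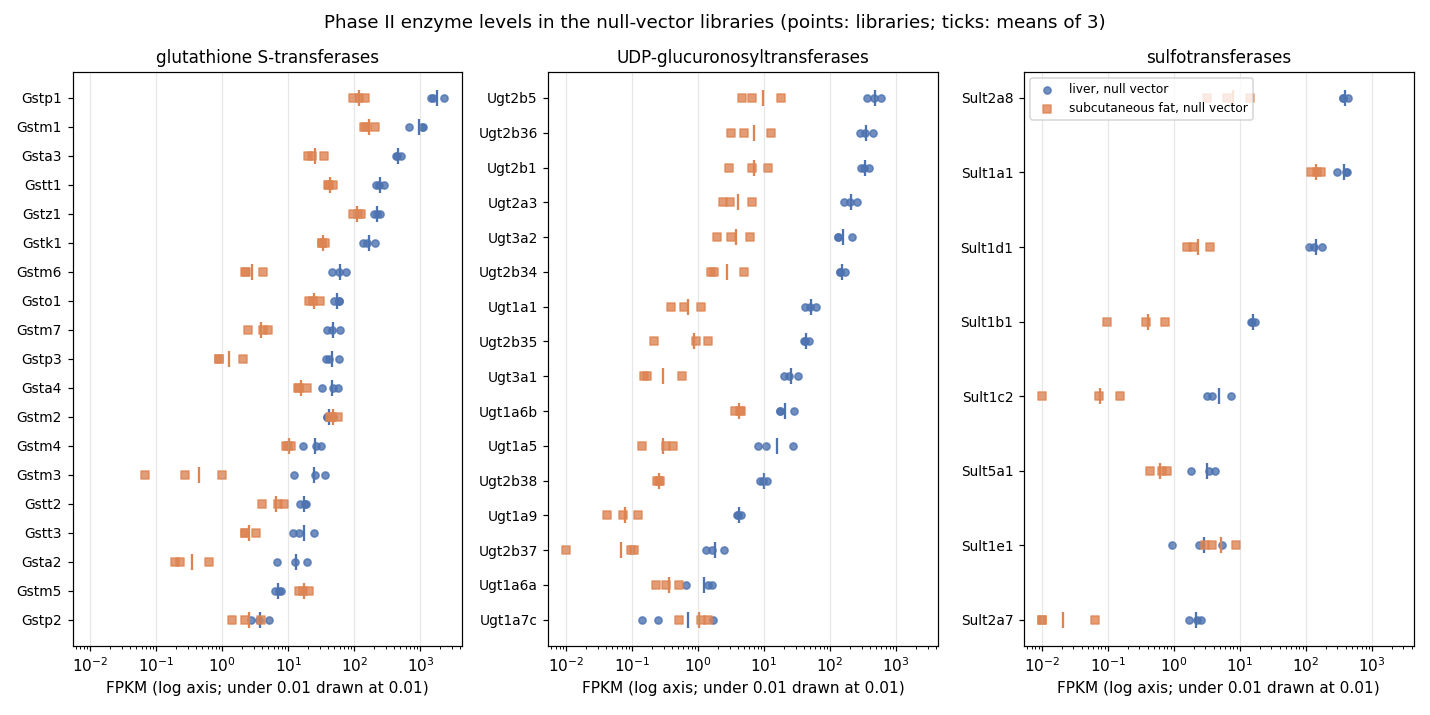
Levels of the 43 members with a mean of at least 1 FPKM in either null group, on a log axis of FPKM, with 1 point per library (circles liver, squares fat) and a tick at the mean of 3. Most Ugt members lie far to the left in fat, while Gstm2, Gstp2, Sult1e1 and Ugt1a7c overlap between tissues and Gstm5 is higher in fat.

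The tissues were then compared within the null vector. Of 45 members tested, 38 were lower in fat than in liver and 3 were higher (Gstm5, Gsto2 and Ugt8a), called at an adjusted p below 0.05 (edgeR quasi-likelihood, Benjamini-Hochberg over 15259 genes). Of all genes tested, 30.5% were lower and 33.8% higher in fat. The split depended on the scaling. With library size only, under which the median over genes shifted from 0.09 to 0.98, 33 members were lower and 4 higher, and the share of higher genes among all called went from 52.6% to 79.8%. Gstm4, Gsto1, Gstt2, Gstz1 and Ugt1a6a were then not called, Gstm2 was called higher in fat, and no member called under both scalings changed direction. The median log2 fold change, fat over liver, was -2.46 for 20 Gst members, -5.67 for 17 Ugt members and -5.49 for 8 Sult members, beside 0.09 for all genes. The members that did not pass were Gstm2, Gstp2, Sult1e1 and Ugt1a7c.

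Many Ugt and Sult members stood in fat at about the same percent of their liver level as hepatocyte transcripts. The 12 hepatocyte markers, secreted plasma proteins such as Alb and Apoa1 that are known from hepatocytes, stood in null fat at 1.91% to 2.51% of their null liver FPKM. By library their median was 1.13%, 1.21% and 3.93% in null fat replicates 1 to 3, highest in replicate 3. Of the 42 members with at least 1 FPKM in null liver, 21 lay at no more than 2 times the median marker (2.09%), between 0.975% and 3.74%, and 21 lay above, between 4.79% and 244%. The split followed the families. The 21 near the markers were 13 Ugt, 5 Sult and 3 Gst members (Gsta2, Gstm3 and Gstp3), and the 21 above were 16 Gst, 3 Sult (Sult1a1, Sult1e1 and Sult5a1) and 2 Ugt members (Ugt1a6a and Ugt1a6b). The level itself made this split, so it carries no test. With null replicate 3 left out, Ugt2b37 and Ugt2b38 moved above the line, and the count was 23.

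**Figure D2:**
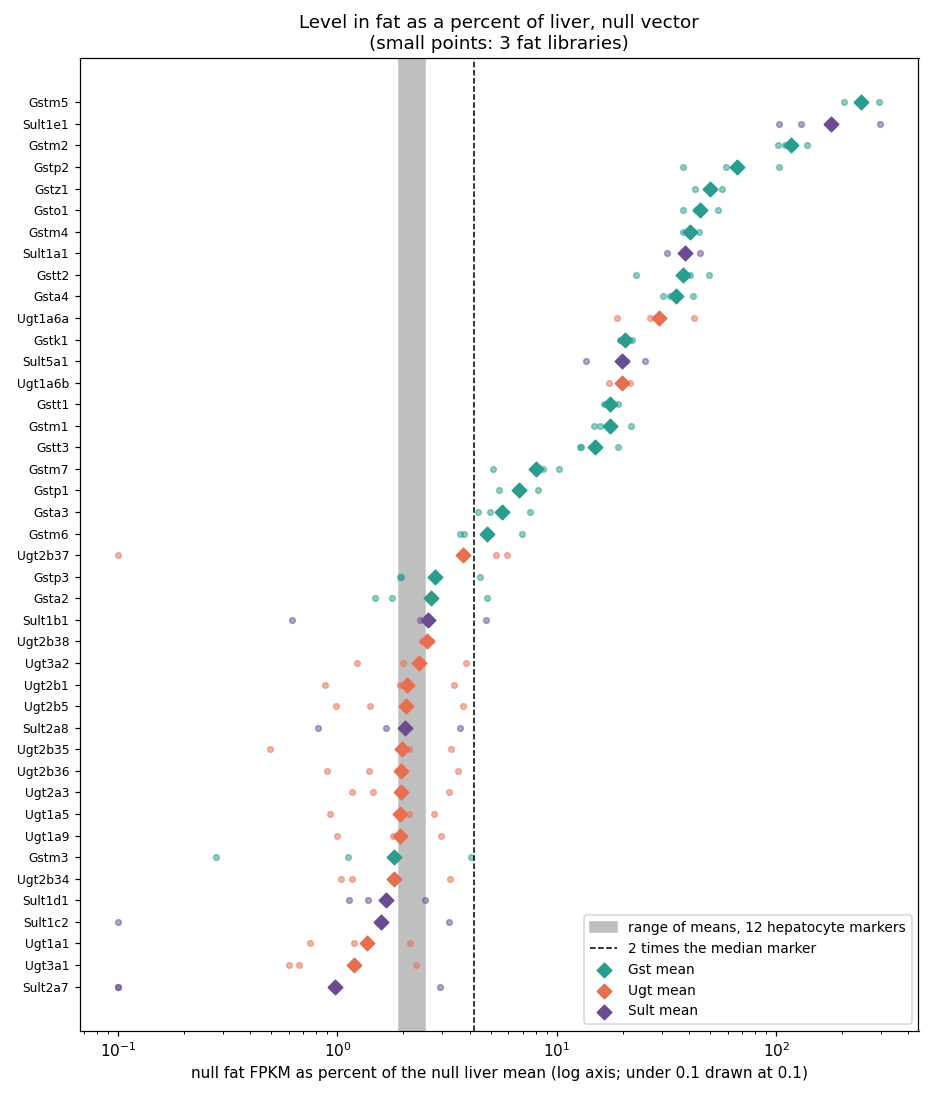
Null fat FPKM as a percent of the null liver mean, on a log axis, for 42 members in order, with diamonds for means, small points for the 3 fat libraries, a grey band for the range of 12 hepatocyte marker means and a dashed line at 2 times their median. Most Ugt members sit on the band and most Gst members to the right of it, up to 244% for Gstm5.

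Within the group near the markers, Ugt2b5 had 9.68 ± 7.04 FPKM in null fat, 2.05% of its liver level, beside 2.13% for Alb. Ugt2b1 stood at 2.07%, Ugt2b36 at 1.95%, Ugt2a3 at 1.95%, Sult2a8 at 2.04% and Ugt1a1 at 1.36%. In fat replicates 1 to 3 the ratio of the 21 members to the median marker of the same library had a median of 1.28, 0.819 and 0.84. The level in these null libraries chose the 21, so the ratios are a description. Whether adipose cells make any of the 21 was not tested. The HNF1 core shown above was in 8 of the 19 members near the markers that had a promoter window, and in 0 of 18 above. This overlaps with the contrast of families, since 16 of the 21 members above were Gst, a family with the core in 0 of 20 promoters.

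The members above the markers included the most abundant ones of fat. Gstm1 led null fat at 165 ± 36.0 FPKM, 17.4% of liver, followed by Sult1a1 at 145 ± 24.4 (38.6%), Gstp1 at 119 ± 24.7 (6.72%) and Gstz1 at 112 ± 15.8 (50.1%). Sult1a1 made up 89.6% of the Sult sum in null fat, against 40.2% in null liver. Gstm2 had 48.4 ± 7.80 FPKM in null fat and 41.6 ± 5.04 in null liver, and the difference did not pass the test (log2 fold change 0.17, SE 0.15, adjusted p = 0.371 by edgeR). Gstt1 (43.1 ± 3.38), Gstk1, a mitochondrial and peroxisomal enzyme (33.6 ± 2.36), Gsta3 (25.8 ± 7.75) and Gsto1, which also reduces dehydroascorbate (24.9 ± 4.69), filled the next places. Gsta4, which conjugates the lipid peroxidation product 4-hydroxynonenal, had 15.8 ± 2.68 FPKM in null fat and 45.3 ± 11.9 in null liver, and Sult5a1 had 0.624 ± 0.185 and 3.14 ± 1.22.

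Gstm5 was the abundant member that favoured fat, with 17.3 ± 3.20 FPKM in null fat and 7.09 ± 0.714 in null liver. Ugt8a, which makes galactosylceramide for myelin, was low in both, at 0.541 ± 0.191 and 0.0896 ± 0.0861 FPKM, and its call was lost without null liver replicate 2 (adjusted p = 0.0801 by edgeR), null fat replicate 1 (0.0759) or null fat replicate 2 (0.0513). Gsto2 had 0.677 ± 0.319 FPKM in null fat and a mean of 0.0186 in null liver.

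Liver was compared first between vectors. No member among 43 tested reached an adjusted p of 0.05 in the edgeR quasi-likelihood fit of 13351 genes, which called 0% of all genes. The smallest adjusted p of a member was 0.552. 6 members had an unadjusted p below 0.05, beside 6.94% of all genes. The groups did not overlap for 5 members, beside 12.5% of all genes. The median log2 fold change, hHKDC1 OE over null, was -0.18 with 31 of 43 below 0, beside 0.01 for all genes. DESeq2 called 0 members and 90 genes. Without hHKDC1 OE replicate 2, 18 of 43 members had an unadjusted p below 0.05, 6 with a positive and 12 with a negative change, beside 10.7% of all genes, 737 with a positive and 720 with a negative change.

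Normalised CPM, which are counts scaled to a common library size with TMM within the tissue, are given below for single members in replicates 1, 2 and 3. Gstp2 had 2.78, 2.02 and 1.55 CPM in null liver and 4.86, 3.78 and 4.37 in hHKDC1 OE liver. All hHKDC1 OE libraries were above the null libraries, with a log2 fold change of 1.03 (SE 0.32) and an adjusted p of 0.552 by edgeR. Its neighbour Gstp1, with which it shares sequence, had 795, 1287 and 873 CPM in null liver and 1615, 951 and 1278 in hHKDC1 OE liver, so its groups overlapped. The exact permutation test of Gstp2 gave p = 0.1, the smallest that 3 libraries against 3 allow. Without hHKDC1 OE replicate 2 its log2 fold change was 1.12 (SE 0.36, adjusted p = 0.253 by edgeR).

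Members with the smallest p among the abundant enzymes were lower on average in hHKDC1 OE liver. Ugt2b1 had 722, 568 and 630 CPM in null liver and 457, 384 and 564 in hHKDC1 OE liver, a log2 fold change of -0.45 (SE 0.19, adjusted p = 0.670 by edgeR). Ugt1a1 had 96.9, 82.7 and 69.6 CPM in null liver and 66.8, 61.2 and 63.7 in hHKDC1 OE liver, a log2 fold change of -0.38 (SE 0.15, adjusted p = 0.662 by edgeR). For both genes the groups did not overlap, and the nearest libraries lay close together. Without hHKDC1 OE replicate 2 the log2 fold change was -0.33 for Ugt2b1 and -0.35 for Ugt1a1. Sult1a1 had 455, 333 and 453 CPM in null liver and 278, 360 and 240 in hHKDC1 OE liver, a log2 fold change of -0.50 (SE 0.20), and its groups overlapped through hHKDC1 OE replicate 2, without which it was -0.68.

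Ugt2b38 and Sult2a7 depended on replicate 2. Ugt2b38 had 13.2, 15.5 and 12.2 CPM in null liver and 26.2, 10.5 and 39.6 in hHKDC1 OE liver, with a log2 fold change of 0.90 (SE 0.39). Without hHKDC1 OE replicate 2 the log2 fold change was 1.27 (SE 0.21) and the adjusted p 0.0255 by edgeR, the only member called in that fit, in which 1.07% of all genes were called. In that fit Ugt2b38 was higher in hHKDC1 OE liver, and 24.2% of its 100-base windows occur also in Ugt2b5 or Ugt2b37. Sult2a7 had 1.54, 2.15 and 2.42 CPM in null liver and 7.26, 1.38 and 5.12 in hHKDC1 OE liver, with a log2 fold change of 1.60 without replicate 2 (adjusted p = 0.0701 by edgeR). Ugt1a6a showed the other arrangement, with 2.04, 4.43 and 5.21 CPM in null liver and 5.23, 14.04 and 4.48 in hHKDC1 OE liver, where replicate 2 was the high library and without it the log2 fold change was 0.32 in place of 1.03. Ugt1a5 had 43.1, 13.2 and 17.7 CPM in null liver and 5.66, 23.8 and 6.67 in hHKDC1 OE liver, and Gsta4 had 50.6, 44.4 and 30.7 against 21.2, 44.3 and 18.9. For Ugt1a5 and Gsta4 replicate 2 lay in the null range, and without it their log2 fold changes were -2.00 and -1.07 in place of -1.03 and -0.58, with adjusted p of 0.0989 and 0.0652 by edgeR.

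**Figure D3:**
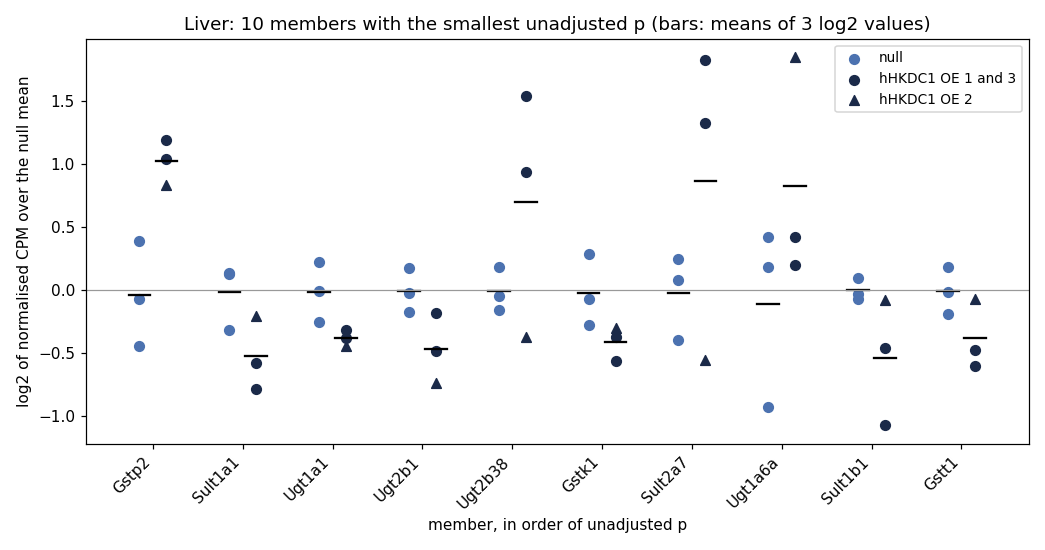
Normalised CPM of each liver library over the null mean, as log2, for the 10 members with the smallest unadjusted p, with triangles for hHKDC1 OE replicate 2 and bars for means of 3. Only Gstp2, Ugt1a1, Ugt2b1, Gstk1 and Sult1b1 show groups that do not overlap, and replicate 2 lies on the other side of 0 from replicates 1 and 3 for Ugt2b38 and Sult2a7.

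The remaining liver members in order of p were Gstk1 at -0.41 (SE 0.17), Sult1b1, which takes thyroid hormones, at -0.48 (SE 0.23) and Gstt1 at -0.36 (SE 0.18, and -0.54 without replicate 2) on the log2 scale, with adjusted p between 0.694 and 0.764 by edgeR. Without replicate 2, Sult1b1 was at -0.73 (adjusted p = 0.172 by edgeR). Family sums were compared between vectors in normalised CPM per kilobase of gene length, since the constants of the FPKM were larger in hHKDC1 OE replicates 2 and 3 than in null liver. Those of the Gst and Ugt families overlapped and those of the Sult family did not, beside 12.5% of single genes. Gst summed to 3255 ± 322 in hHKDC1 OE liver and 3090 ± 431 in null liver, and Ugt to 1240.0 ± 180.2 and 1358 ± 251. The Sult sum ran from 522 to 567 in hHKDC1 OE liver and from 608 to 758 in null liver, and its mean was 544 ± 22.4 against 681 ± 75.2. Markers of other cells also differed on average between the vectors, with 0 called (1 endothelial marker without replicate 2). All 10 macrophage and Kupffer cell markers were higher on average in hHKDC1 OE liver. Of them 8 had an unadjusted p under 0.05 (9 without replicate 2), beside 6.94% of all genes (10.7% without it). Their sums were 127 to 251 CPM in null and 234 to 465 in hHKDC1 OE liver. All 7 endothelial markers were lower on average, with sums of 96.1 to 141 in null and 58.9 to 104 in hHKDC1 OE liver. Both sums overlapped between vectors. The part of these markers in the member values was not tested.

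In subcutaneous fat the members lay mostly below their null level. Among 40 members tested in the edgeR quasi-likelihood fit of 16380 genes, none reached an adjusted p of 0.05, 0% of all genes were called, and the smallest adjusted p of a member was 0.149. There were 37 members with a log2 fold change below 0 and 3 above, with a median of -0.70 beside -0.05 for all genes. 13 members had an unadjusted p below 0.05, 12 of them with a negative change. Of all genes 17.7% had one, 1856 with a positive and 1047 with a negative change. For 12 members the groups did not overlap, each with hHKDC1 OE fat below null fat, beside 22.7% of all genes in either direction. Of those 3719 genes, 2045 had a positive change. All 15 Ugt members tested were below 0, with a median of -1.11, and all 7 Sult members, with a median of -1.14. In normalised CPM per kilobase the sum of each family did not overlap between vectors, beside 22.7% of single genes. Gst summed to 793.7 to 979.2 in null fat and 593.3 to 690.2 in hHKDC1 OE fat. The ranges were 34.24 to 92.77 and 16.16 to 30.92 for Ugt, and 185.5 to 250.9 and 105.6 to 171.9 for Sult.

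Most hepatocyte markers also had negative log2 fold changes, 11 of 12, and the median of the 12 was -1.29. The exception was Hpx at 0.28 (SE 0.54), which in liver was at 1.47 (SE 0.41). The markers summed to 2907, 3086 and 9046 CPM in null fat against 2706, 981 and 1587 in hHKDC1 OE fat. Ugt2b genes summed to 17.9 to 64.2 normalised CPM per kilobase in null fat and 6.498 to 20.9 in hHKDC1 OE fat, with null replicate 3 highest and hHKDC1 OE replicate 2 lowest in both measures. The 15 members near the markers that were tested had a median log2 fold change of -1.18, and the 21 above the markers one of -0.50. Without hHKDC1 OE replicate 2 these medians lay closer, at -0.88 over 16 members and -0.60 over 21, and that of the hepatocyte markers was -0.997. Without null replicate 3 the median of the members was -0.53. The part of the hepatocyte markers' difference in that of the members was not tested.

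Among members near the markers, Ugt2a3 had 8.57, 7.01 and 18.6 CPM in null fat against 5.64, 2.74 and 2.71 in hHKDC1 OE fat, a log2 fold change of -1.62 (SE 0.49, adjusted p = 0.176 by edgeR). Ugt3a2 had 13.3, 8.37 and 25.1 CPM in null fat against 8.01, 4.45 and 6.89 in hHKDC1 OE fat. In both genes null replicate 3 was the highest library, as for the markers. Ugt2b1 had a log2 fold change of -1.61 (SE 0.60) with overlapping groups.

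Gsta3, the Alpha-class enzyme, had the smallest p of the members and stood above the markers in null fat. It had 134, 120 and 198 CPM in null fat against 56.7, 89.1 and 35.2 in hHKDC1 OE fat, a log2 fold change of -1.32 (SE 0.36, adjusted p = 0.149 by edgeR). All hHKDC1 OE libraries were below all null libraries, and replicate 2 was the one nearest to them. Gsta3 was lower in hHKDC1 OE fat at an adjusted p of 0.0118 by edgeR without replicate 2 and at 0.0141 by DESeq2. As a percent of liver of the same vector it stood at 4.97%, 4.35% and 7.54% in null fat against 2.29%, 3.89% and 1.43% in hHKDC1 OE fat. The marker medians were 1.30%, 0.505% and 0.746% in the last group. These percents rest on FPKM, so the constants of the libraries enter the difference between vectors.

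The Mu-class members of fat were also lower on average. Gstm1 had 279, 303 and 401 CPM in null fat against 212, 248.6 and 191 in hHKDC1 OE fat, a log2 fold change of -0.59 (SE 0.20, adjusted p = 0.211 by edgeR). Gstm4 had 21.6, 23.6 and 25.04 CPM in null fat against 12.1, 18.2 and 14.6 in hHKDC1 OE fat, and Gstm5 had 29.0, 36.5 and 24.2 against 17.7, 19.8 and 22.01. The groups did not overlap for these 3 genes. Gstt1 at -0.42 (SE 0.13) and Gstk1 at -0.40 (SE 0.15) on the log2 scale also had groups that did not overlap, while Gsto1 overlapped, with 55.4, 64.6 and 78.0 CPM in null fat against 55.3, 64.6 and 77.9 in hHKDC1 OE fat.

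Some members had replicate 2 with the null libraries. Sult1a1, the main sulfotransferase of fat, had 242, 305 and 333 CPM in null fat against 144, 244 and 146 in hHKDC1 OE fat, a log2 fold change of -0.72 (SE 0.26, adjusted p = 0.226 by edgeR) that was -1.03 without replicate 2. Gstm2 had 96.1, 106 and 127 CPM in null fat against 61.9, 129 and 43.0 in hHKDC1 OE fat. Sult1e1 had 14.4, 6.39 and 4.87 CPM in null fat against 1.37, 6.80 and 2.40 in hHKDC1 OE fat. For each of these genes hHKDC1 OE replicate 2 lay in or beside the null range. The log2 fold change of Gstm2 was -0.49 with all libraries and -1.07 without replicate 2, and that of Sult1e1 was -1.28 and -2.20. Ugt8a had 4.62, 3.04 and 2.30 CPM in null fat against 0.284, 2.05 and 0.615 in hHKDC1 OE fat, and Ugt1a6b 11.7, 14.01 and 14.1 against 6.06, 10.8 and 3.63. In these last genes the groups did not overlap, and leaving out replicate 2 moved the log2 fold change of Ugt8a from -1.74 to -2.90 and that of Ugt1a6b from -0.95 to -1.46.

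Without hHKDC1 OE replicate 2, 9 of 41 members passed an adjusted p of 0.05 by edgeR, in a fit that called 18.9% of all genes. The library left out was the hHKDC1 OE library nearest to null fat, so this fit favours larger differences. At an unadjusted p below 0.05 there were 15 of 41, beside 33.7% of all genes. Lower in hHKDC1 OE fat were Gsta3, Gstm2, Gstm4, Gstz1, Sult1a1, Sult1e1, Ugt1a6b and Ugt8a, and higher was Gstp3. Of the 9, 7 were members above the markers, Gstp3 was near them and Ugt8a was below the liver level needed for that ratio. The log2 fold changes of the 8 lower genes ran from -2.90 for Ugt8a to -0.78 for Gstz1. The 2 hHKDC1 OE libraries left in that fit had the highest B cell and T cell marker sums of the fat libraries.

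**Figure D4:**
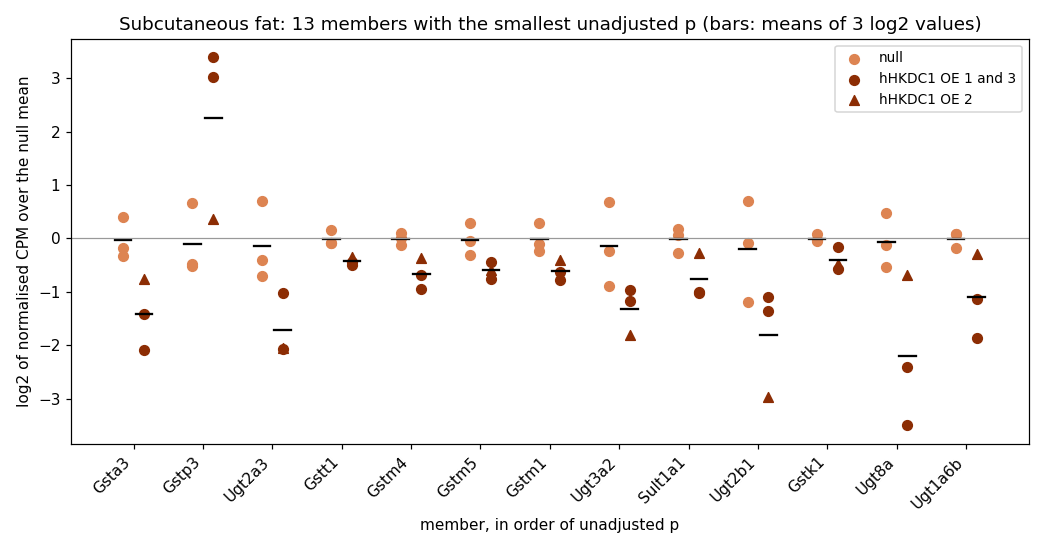
Normalised CPM of each fat library over the null mean, as log2, for the 13 members with an unadjusted p under 0.05, with triangles for hHKDC1 OE replicate 2 and bars for means of 3. Gstp3 is the member above 0, through replicates 1 and 3, and the other 12 lie below 0.

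Gstp3, the third Pi-class gene, went the other way. It had 0.851, 0.868 and 1.93 CPM in null fat against 9.90, 1.56 and 12.9 in hHKDC1 OE fat, a log2 fold change of 2.72 (SE 0.79, adjusted p = 0.164 by edgeR). Replicates 1 and 3 were high and replicate 2 lay inside the null range. Without replicate 2 the log2 fold change was 3.20 (SE 0.44) and the adjusted p 0.00482 by edgeR, and DESeq2 with all libraries gave an adjusted p of 0.00558. In the annotation used for the windows, where its gene model is not at the position given in the count table, it shares 0% of its 100-base windows with another gene. As a percent of liver of the same vector it stood at 1.94%, 1.94% and 4.49% in null fat against 25.9%, 4.43% and 33.8% in hHKDC1 OE fat. The constants of the FPKM enter these percents too.

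Lymphocyte markers were also highest in hHKDC1 OE replicates 1 and 3, and their sums in replicate 2 lay above every null library. Single markers could differ, as Zap70 had 57 counts in replicate 2 and 61 in null replicate 3. The 8 B cell markers summed to 2.07, 1.92 and 3.53 CPM in null fat against 831, 46.9 and 608 in hHKDC1 OE fat, and the 8 T cell markers to 6.38, 5.33 and 14.8 against 545, 40.2 and 604. Each of the 16 genes had an unadjusted p under 0.05. Slc7a11, the cystine carrier that feeds glutathione synthesis, had counts of 5, 1 and 2 in the null libraries of fat, and of 290, 25 and 341 with hHKDC1 OE, again with replicate 2 between. The other lists of cells also differed between fat libraries. Skeletal muscle markers summed to 19580, 23430 and 539 CPM in null fat against 15620, 1059 and 2588 in hHKDC1 OE fat, and skin and gland epithelium markers to 185, 28.7 and 91.4 against 13.7, 23.2 and 16.7. The 10 adipocyte markers summed to 25540 to 35440 CPM in null fat and 23940 to 31070 in hHKDC1 OE fat. Of 10 macrophage markers 9 were higher on average, and all 5 red cell genes were lower on average. Of 6 genes of brown and beige fat 4 were higher and 2 lower on average, with a median log2 fold change of 0.84. Ucp1, which had the smallest p of them, had counts of 2, 20 and 1 in null and of 1529, 91 and 338 in hHKDC1 OE fat, whereas Cidea in replicate 2, with 499, lay in the null range of 349 to 704. What part the lymphocytes, macrophages, red cells, brown fat, muscle and epithelium had in the member values was not tested.

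**Figure D5:**
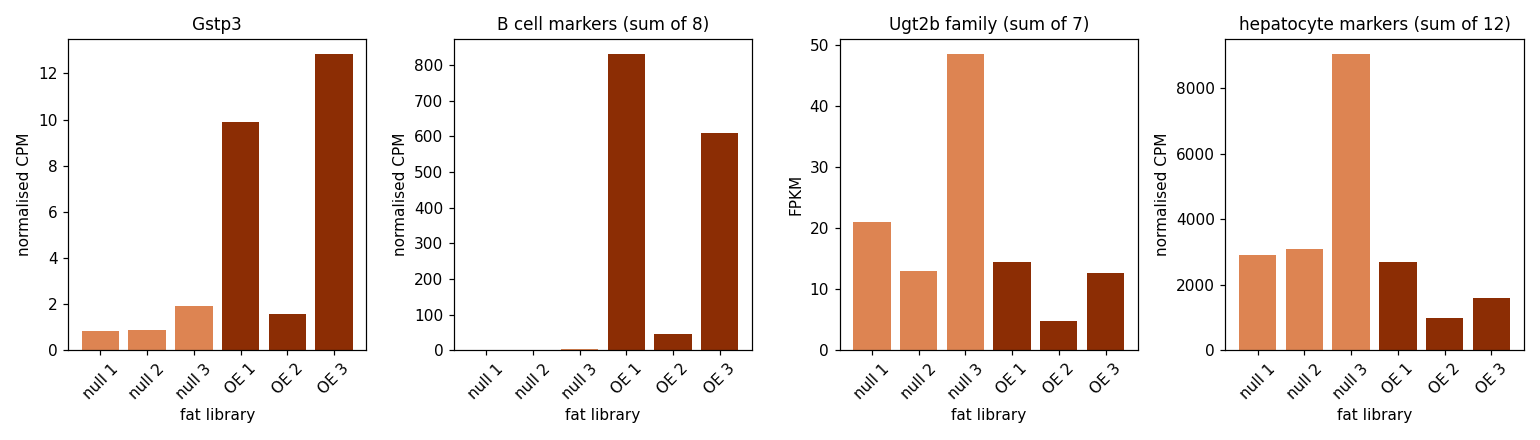
Bars of Gstp3 and of the summed B cell markers, Ugt2b genes and hepatocyte markers in each of the 6 fat libraries. Values are in normalised CPM, or for Ugt2b in FPKM, whose constants differ by library. Gstp3 and the B cell sum are highest in hHKDC1 OE replicates 1 and 3, and the Ugt2b and hepatocyte sums are highest in null replicate 3.

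Whether the vector effect differed between fat and liver was tested with an interaction term in a fit of 12 libraries. No member passed among 46 tested by edgeR over 17070 genes, where 0% of genes were called, and 8 had an unadjusted p under 0.05, beside 12.7% of all genes. Gstp3 had the smallest p, with a log2 difference, fat effect minus liver effect, of 3.05 (SE 0.83, adjusted p = 0.166 by edgeR), and of 3.32 without fat hHKDC1 OE replicate 2 (adjusted p = 0.00292 by edgeR). In liver Gstp3 had 29.5, 19.6 and 22.2 CPM in null and 15.3, 28.1 and 16.5 in hHKDC1 OE libraries, with replicate 2 again apart from replicates 1 and 3. Gsta3 differed by -1.06 (SE 0.44) and Gstm5 by -0.82 (SE 0.31). In the fit without fat hHKDC1 OE replicate 2, Gsta3 and Ugt1a6b were called with a negative difference and Gstp3 with a positive one. Over all genes that fit called 700 with a positive and 511 with a negative difference. The differences of Ugt1a9 and Ugt2b37 were larger, but both had 0 counts in all hHKDC1 OE fat libraries and at most 0.372 CPM in any null fat library, so no fold is given.

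The pathways that serve these enzymes were followed with lists of genes, of which none passed an adjusted p of 0.05 in either treatment comparison by edgeR, where 0% of all genes were called. Among 7 tested genes of glutathione supply in liver, 0 had an unadjusted p under 0.05 (1 without replicate 2), and the median log2 fold change was 0.06. In fat 3 of 8 had one (6 of 8 without replicate 2), beside 17.7% of all genes (33.7% without it), led by Slc7a11 at 6.19 (SE 1.19) and Cbs, of cysteine synthesis, at -0.76 (SE 0.25). Suppliers of UDP-glucuronate, 3 genes, had medians of 0.15 in liver and -0.44 in fat, where Ugp2, which makes UDP-glucose, was at -0.68 (SE 0.29). For PAPS, 6 genes had medians of 0.09 and -0.17. Papss2, a PAPS synthase, was at -0.44 (SE 0.19) in liver and -0.50 (SE 0.20) in fat, and the Golgi PAPS carrier Slc35b3 at 0.47 (SE 0.19) and 0.74 (SE 0.24). Without replicate 2 the medians in liver were 0.24 for glutathione supply and 0.17 for PAPS, and that of PAPS in fat was -0.27.

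Conjugating enzymes outside the 3 families gave medians of 0.05 in liver and -0.33 in fat over 11 genes. Inmt, a methyltransferase of indole amines, had 16817, 13705 and 15365 counts in null liver and 8013, 10346 and 5816 in hHKDC1 OE liver, a log2 fold change of -1.09 (SE 0.22, adjusted p = 0.355 by edgeR), and was at -0.85 (SE 0.23) in fat. Its liver groups did not overlap. Microsomal glutathione transferases had medians of -0.09 over 2 genes in liver and -0.27 over 3 in fat. Hydrolases that undo conjugation or open epoxides had medians of 0.03 in both tissues over 5 genes, with the carboxylesterase Ces1d at -0.88 (SE 0.21) and the epoxide hydrolase Ephx2 at -0.43 (SE 0.17) in liver. Without replicate 2 the liver median of the hydrolases changed sign to -0.22, with 4 of 5 genes below 0. The other conjugating enzymes then had medians of 0.14 in liver and -0.60 in fat, and the microsomal transferases -0.28 in liver.

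The 8 efflux pumps were at a median of -0.27 in liver and -0.65 in fat, where all 8 were below 0. Abcb1a, a drug efflux pump, was at -0.93 (SE 0.29) in liver and -0.78 (SE 0.23) in fat. Regulators of xenobiotic genes, 14 in all, had medians of 0.05 in liver and -0.41 in fat. Por, the reductase that serves cytochrome P450 enzymes, was at -0.62 (SE 0.17) in liver, Ppara at -0.40 (SE 0.15) in liver and Nr1i2, which encodes the nuclear receptor PXR, at -1.88 (SE 0.69) in fat. Targets of NRF2 other than conjugating enzymes had a median of -0.01 over 14 genes in liver and -0.02 over 15 in fat. Among oxidases driven by CAR, PXR or AHR, medians were -0.23 over 8 genes in liver and -0.68 over 5 in fat, with Cyp3a11 at -1.18 (SE 0.44) and -2.48 (SE 0.72). Among the fat libraries Nr1i2 peaked in null replicate 3, with 171 counts there and 17 to 37 elsewhere. Cyp3a11 peaked in the same library, at 837 against 41 to 176 elsewhere. Hepatocyte markers were also highest in that library, and their part in the fat values of Nr1i2 and Cyp3a11 was not tested. Without replicate 2 the oxidases had medians of -0.49 in liver and -0.32 in fat, the regulators one of -0.01 in liver, and the NRF2 targets -0.09 in liver and 0.03 in fat, so the last changed sign, as did the regulators in liver.

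Several Ugt and Sult genes of mouse liver differ between the sexes, so sex-biased liver genes were read beside them. The 12 male-biased genes had a median of 0.15 in liver, with 4 at an unadjusted p under 0.05 (8 without replicate 2), beside 6.94% of all genes (10.7% without it), among them Cyp4a12b at -1.05 (SE 0.24) and Hsd3b5 at 0.75 (SE 0.26). Of 12 female-biased genes 4 could be tested in liver, with a median of -0.55 and Acot3 at -2.07 (SE 0.81) and Fmo2 at -0.90 (SE 0.34). Acot3 had 636, 226 and 406 counts in null liver and 19, 298 and 31 in hHKDC1 OE liver, with replicate 2 in the null range. Without replicate 2 the median was 0.43 for the male-biased and -1.86 for the female-biased genes. Perivenous and periportal hepatocyte genes, 8 each, had medians of -0.09 and -0.19 in liver.

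Without replicate 2, genes of these lists passed an adjusted p of 0.05 by edgeR. In liver, where that fit called 1.07% of all genes, they were 1 of 11 other conjugating enzymes, 1 of 8 efflux pumps and 1 of 8 oxidases. Also called there were 4 of 12 male-biased, 2 of 4 female-biased, 1 of 8 perivenous and 1 of 8 periportal hepatocyte genes. In fat, where it called 18.9% of all genes, they were 2 of 8 genes of glutathione supply, 1 of 6 of PAPS supply, 1 of 11 other conjugating enzymes, 2 of 8 efflux pumps, 3 of 14 regulators, 2 of 15 NRF2 targets and 2 of 4 female-biased genes.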

How the data were processed

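RNA of 12 mouse libraries was sequenced as read pairs of 150 bases without strand information. The authors mapped the reads with STAR (version 2.5 per the labels) and counted fragments per gene with HTSeq 0.6.1, and the deposited counts are whole numbers without normalization. A human reference is named in the methods, but the gene identifiers are mouse Ensembl ones. For the deposited FPKM, 100% of values at 20 or more counts were proportional to count over gene length within 1%, with 1 constant per library, so levels of both tissues depend on the authors' scaling. The constant stood for 11340000 to 14350000 reads in liver and 22220000 to 30380000 in fat, while total counts were alike, so the FPKM of fat are low against those of liver for every gene, hepatocyte markers included.

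Counts were tested with edgeR 4.0.16 (quasi-likelihood, TMM, filterByExpr, Benjamini-Hochberg over all genes tested) in R 4.3.3, within each tissue, between tissues in null mice, and as an interaction. Genes were called at an adjusted p under 0.05. DESeq2 1.42.0, other scalings and filters, a replicate block and fits without each library were alternatives. The edgeR and DESeq2 fits were tested on simulated counts with known changes, and the other computations were not. Replicates of a group differed by far more than sampling noise (chi-square per gene 21.8 to 173). The study's supplement gives 3 mice per group for the fat libraries. For liver the labels do not say that the libraries come from separate mice, so p-values there measure the spread between these libraries, which may be technical. Counting error is large below 10 counts, and 0 counts allow up to 3.

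The correlation of deviations between libraries with the same number was 0.0883 to 0.219 for liver, -0.122 to 0.0298 for fat and 0.0282 to 0.241 between null liver and null fat, so the numbers were not taken as pairs.

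Named were the 10 members with the smallest p in each treatment comparison, the 10 highest by FPKM in each null tissue, 14 well-known members, and for each list the genes with the smallest p. Other members were named after their values were seen, where replicate 2 decided a value or a call. The members, lists and tests were chosen with earlier results of these data known. Exonic overlap and shared 100-base windows were computed from GENCODE M21, and promoter windows are those of RefSeq. Group means and the authors' own fold changes and p-values were deposited too and were not used.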

Additional observations from a re-analysis of the deposited data

How the results depend on the processing

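The count of members called changed with the tool and with replicate 2 of hHKDC1 OE. In liver it was 0, and 3 with no filter on low counts (Ugt1a5, Ugt1a6a and Ugt2b38), and it ranged from 0 to 1 with each library left out, the 1 being without hHKDC1 OE replicate 2. In fat it was 0, and 3 by DESeq2 (Gsta3, Gstp3 and Ugt2a3), 1 with no filter (Gsta3) and 4 with all 12 libraries in 1 fit (these 3 and Ugt1a9), and it ranged from 0 to 9 with each library left out, the 9 being without hHKDC1 OE replicate 2. For the interaction it was 0, and 1 by DESeq2 and 1 with no filter (Gstp3 in both), and ranged from 0 to 3 with each library left out, the 3 being without fat hHKDC1 OE replicate 2. Between tissues it was 41 and stayed from 30 to 44 under every alternative, with library size only giving 37. The cause of these changes was not tested. With the replicate number as a block the counts were 0 in liver, 0 in fat, 41 between tissues and 0 for the interaction. Over all genes, 0 were called in fat by edgeR, 1303 by DESeq2, 876 with 12 libraries in 1 fit, 803 with no filter, 168 with the block and 3251 without hHKDC1 OE replicate 2, and in liver 0, 90, 0, 327, 17 and 146. Single log2 fold changes were followed for the members with the smallest p in the treatment comparisons and the interaction, and for a fixed list between tissues. None of these reversed in any alternative run. Other members did reverse without hHKDC1 OE replicate 2. In liver Gstm4 went from 0.21 to -0.07, Gstm3 from 0.23 to -0.08, Ugt2b34 from -0.09 to 0.17 and Ugt3a2 from -0.09 to 0.02. In fat Gsto1 went from -0.001 to 0.003. In fat, scaling by library size only shifted the median over genes from -0.05 to 0.11 and the members' median from -0.70 to -0.56. Leaving out each null fat library gave 21 to 23 members above the hepatocyte markers, an alternative chosen after seeing the data.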
